A study of Drosophila melanogaster with 9 samples.

Results

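The larval serum protein and fat body protein genes form a set of 6 genes, chosen by name: Lsp1alpha, Lsp1beta, Lsp1gamma, Lsp2, Fbp1 and Fbp2, among 16988 named genes in the deposited tables. Values of all RefSeq transcripts of a gene were summed. RNA came from whole Drosophila melanogaster larvae grown at 28 °C, in 3 genotypes with 3 replicate libraries each, every library made from 20 pooled larvae. The reference strain was w1118, whose mutation in the white gene leaves the eyes unpigmented. The strain hopTum bears an overactive form of hopscotch (hop), which encodes the JAK kinase of flies, and is known for overgrown blood cells and melanotic masses. The strain tuSz1 is known for larvae whose blood cells encapsulate the animal's own fat body; the series title speaks of lost self-tolerance. All 3 groups share the growth temperature and the tissue label. Larval age, sex and the strain backgrounds are not given in the sources used here, so a difference between strains cannot be credited to 1 allele.

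Larval serum proteins are hexamerins, storage proteins that the larval fat body makes in bulk during the third larval instar and releases into the blood. The pupa later takes them up again as a source of amino acids for adult tissue. Lsp1alpha, Lsp1beta and Lsp1gamma encode the subunits of the larger family, Lsp2 encodes a separate hexamerin, Fbp1 encodes a fat body receptor for the Lsp1 proteins, and Fbp2 encodes a fat body protein related to alcohol dehydrogenase. In flies, expression of these genes is tied to the steroid hormone ecdysone, most directly for Fbp1. Lsp1alpha lies on the X chromosome and is a textbook case of an X-linked gene that is not dosage compensated in males.

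Only Lsp1alpha and Lsp1gamma were measured in a usable way, and these 2 of the 6 passed the filter on low counts. The files list counts per transcript. Lsp1alpha, at 12490291 to 12492982 on the plus strand of chromosome X in the dm6 build, and Lsp1gamma, at 66430 to 68995 on the plus strand of 3L, each have 1 listed transcript of 2 exons. Their counts over the 9 libraries came to 1902773 and 3962127. The other members have 2 or 3 transcripts that share most of their exonic bases. Lsp1beta (2L, 898500 to 901316) has 144 bases, 5.2% of its exonic sequence, that belong to 1 transcript only, and it had 13 counts in all. Lsp2 (3L, 12129393 to 12131869) has 173 such bases, 7.0%, and 72 counts. Fbp2 (2L, 9426784 to 9427917) has 158 such bases, 14.7%, and 1 count. Fbp1 (3L, 14094589 to 14098053, minus strand) has 60 such bases, 1.7%, and was listed at 0 in all 9 libraries. The way reads shared by several transcripts were treated is not given in the sources used here, and its part in these low counts was not tested. A level near 0 for these 4 genes is not read as absence of expression.

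**Figure D1:**
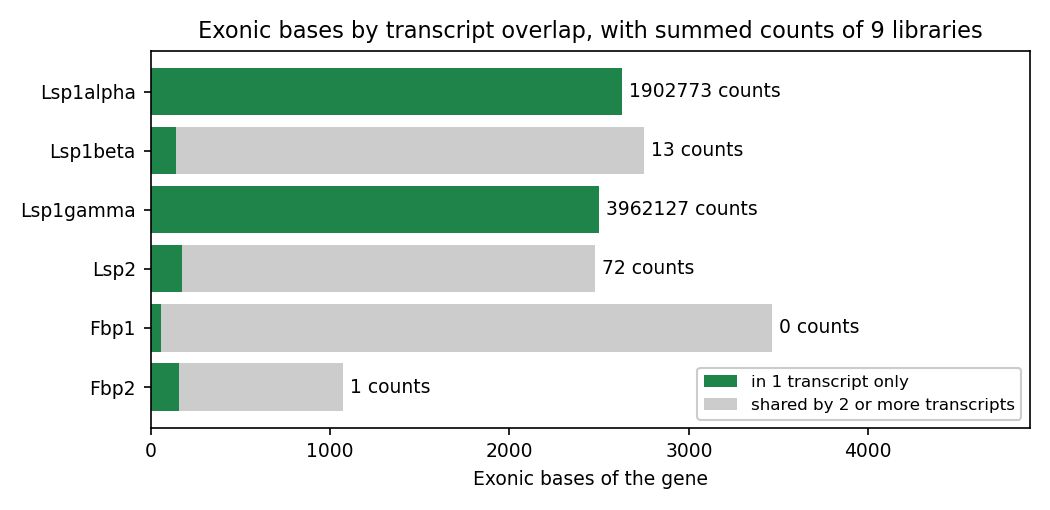
Exonic bases of each gene (horizontal axis, bases), split into those of 1 transcript only (green) and those shared by 2 or more transcripts (grey), with the counts summed over 9 libraries printed beside each bar. The 2 genes that are green throughout hold 1902773 and 3962127 counts, and the 4 others hold 0 to 72.

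The few reads of the other members are given for completeness. For Lsp2, replicates 1 to 3 of w1118 had 3, 4 and 6 counts, those of hopTum had 4, 31 and 14, and those of tuSz1 had 3, 4 and 3. All of them fell on 1 of its 2 transcripts. The 173 bases that belong to 1 transcript only lie at 12131697 to 12131869, the end of the gene. Whether the transcript with the counts is the one that covers these bases was not checked. Lsp2 was thus above 6 counts in hopTum replicates 2 and 3 only, and by counts the groups overlapped. Lsp1beta had at most 5 counts in a library, in tuSz1 replicate 3. The counting floor of 3 counts corresponded to between 0.2 and 0.357 CPM (counts scaled to a fixed library total) by library. Lsp2 was at 2.92 and 1.23 CPM in hopTum replicates 2 and 3, above that floor, and at 0.221 to 0.434 CPM in the other libraries. By CPM hopTum overlapped w1118. Its lowest library, replicate 1 at 0.409 CPM, lay above the highest tuSz1 library at 0.357 CPM, both near the floor. Neither gene passed the filter on low counts, and no fold is given for them.

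Libraries held between 9552828 and 14517286 counts. Counting error was small beside the spread of replicates: the widest 95% Wilson interval of a member's share of all counts was ± 0.0133 percentage points, and such intervals cover counting error only. tuSz1 replicate 3 stood apart in the summed level of 6 glue genes of the salivary gland, at 33.1 CPM, where the other 8 libraries had 12427 to 61617 CPM. hopTum replicate 2 stood apart in Lsp1alpha, as given below. Both are named where a result changes without them. In bulk samples such as these, fewer cells of a type and less RNA per cell cannot be told apart. P-values measure the spread between pools of larvae of 1 strain.

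Lsp1gamma was higher in both mutants than in w1118. Replicates 1 to 3 of w1118 had 7095, 5219 and 13530 CPM, those of hopTum 35905, 58587 and 21305 CPM, and those of tuSz1 47072, 74031 and 124200 CPM. Every library of either mutant lay above every w1118 library, while hopTum and tuSz1 overlapped. Lsp1gamma was the most counted of all genes in the 3 tuSz1 libraries and in hopTum replicates 1 and 2, and it ranked 2 in hopTum replicate 3. Its ranks in w1118 were 15, 17 and 4. It took 0.713% to 1.80% of all counts in w1118, 2.54% to 5.11% in hopTum and 4.11% to 7.18% in tuSz1.

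Lsp1gamma was 4.48-fold higher in hopTum than in w1118 (log2 fold change 2.16 ± 0.55 SE, adjusted p = 0.0188 in the edgeR quasi-likelihood test over all genes). The call was lost when w1118 replicate 1, w1118 replicate 2, hopTum replicate 1 or hopTum replicate 2 was left out (log2 fold changes of 2.04, 1.90, 2.18 and 1.74, adjusted p = 0.061, 0.0883, 0.0563 and 0.062, edgeR). In tuSz1 against w1118 the log2 fold change was 3.25 (SE 0.57, 9.49-fold, adjusted p = 0.00281, edgeR), and it was called in each of the 9 fits that left out 1 library. In tuSz1 against hopTum it was 1.08 (SE 0.53, adjusted p = 0.237, edgeR), which does not show that the mutants were alike. In order of level, Lsp1gamma thus ran from w1118 to hopTum to tuSz1, with no difference beyond the spread between hopTum and tuSz1.

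Lsp1alpha was high in all tuSz1 libraries and uneven in hopTum. The w1118 libraries had 5674, 6574 and 9666 CPM, the hopTum libraries 2088, 20166 and 725 CPM, and the tuSz1 libraries 27126, 41458 and 70442 CPM. The highest hopTum library, replicate 2, had 27.8 times the level of the lowest, replicate 3, against 1.70 times in w1118 and 2.60 times in tuSz1. hopTum replicates 1 and 3 lay below every w1118 library and replicate 2 lay above them all. All tuSz1 values lay above those of both other genotypes. Lsp1alpha ranked 4, 2 and 3 among all genes by count in tuSz1, 19, 13 and 8 in w1118, and 68, 6 and 147 in hopTum.

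The Lsp1alpha difference did not pass the test in any comparison. In tuSz1 against w1118 the log2 fold change was 2.67 (SE 1.02, adjusted p = 0.107, edgeR), a difference of group means of 46342 ± 22067 against 7305 ± 2094 CPM (SD, n = 3). The spread in this fit is shared with hopTum, and with the 6 libraries compared alone the value was 2.47 with adjusted p = 0.00645 (edgeR). Without hopTum replicate 2 or hopTum replicate 3 it passed too (2.67 and 2.58, adjusted p = 0.00764 and 0.0276, edgeR). In hopTum against w1118 it was 0.07 (SE 0.96, adjusted p = 0.973, edgeR) with all libraries and -2.37 (adjusted p = 0.0292, edgeR) without hopTum replicate 2. In tuSz1 against hopTum it was 2.60 (SE 1.02, adjusted p = 0.153, edgeR) with all libraries and 5.04 (adjusted p = 0.0027, edgeR) without hopTum replicate 2. hopTum replicate 2 thus decided both the size and the call of the Lsp1alpha differences that involve hopTum. The same library also stood apart in hop transcripts, at 178.4 CPM against 479.4 and 341.3 CPM in hopTum replicates 1 and 3, with 134.7 to 157.7 CPM in w1118 and 168.2 to 192.4 CPM in tuSz1. The part of this in the Lsp1alpha values was not tested.

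**Figure D2:**
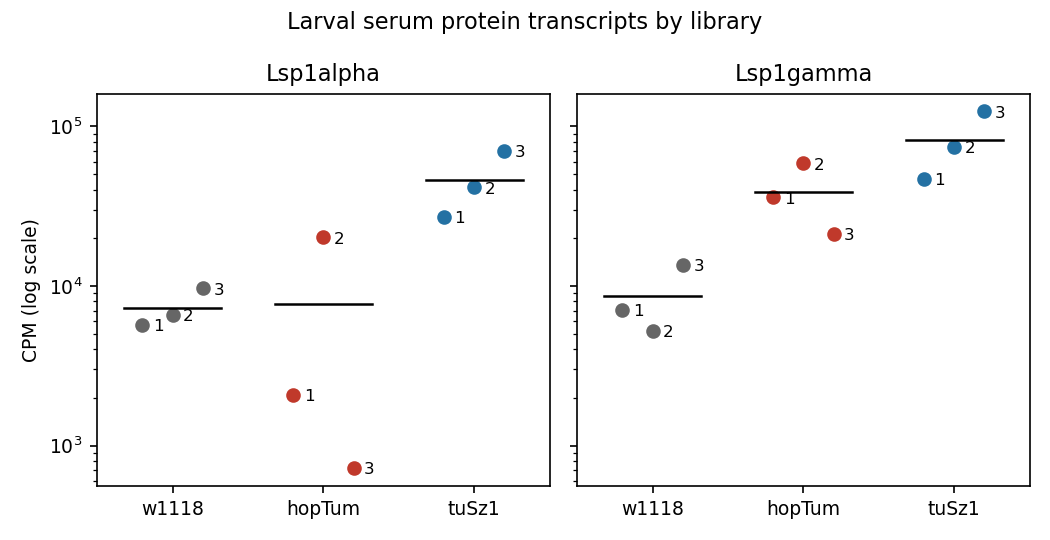
CPM (vertical log axis) of Lsp1alpha and Lsp1gamma in each library, by genotype; points are libraries with their replicate number and the black line is the mean of 3. Lsp1gamma lies above every w1118 library in both mutants, and Lsp1alpha in hopTum spreads from 725 to 20166 CPM.

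Set against all genes, the members' calls were 1 of 2 tested in hopTum against w1118, where 18.1% of 9106 tested genes passed in either direction and 11.5% were called higher. In tuSz1 against w1118 they were again 1 of 2, where 16.3% passed and 9.98% were called higher. The call in each case was Lsp1gamma, and both comparisons share the w1118 libraries. In tuSz1 against hopTum 0 of 2 passed with edgeR, where 9.66% of genes did; 1 of 2, Lsp1alpha, had an unadjusted p under 0.05, as had 24.1% of genes, and the DESeq2 Wald test called 0. Calls to a lower level made up 6.65%, 6.33% and 4.14% of tested genes in the 3 comparisons, and calls to a higher level in tuSz1 against hopTum 5.52%. An unadjusted p under 0.05 was reached by 32.3% and 30.4% of genes in hopTum and tuSz1 against w1118. Groups that do not overlap were common, at 39% of tested genes in hopTum against w1118 (20.4% with hopTum higher), 38.6% in tuSz1 against w1118 (21.4% with tuSz1 higher) and 29.1% in tuSz1 against hopTum (13.7% with tuSz1 higher). With 2 members measured, no share is read from these counts. By size, 272 of 9106 genes had a larger log2 fold change than Lsp1gamma in tuSz1 against w1118, and 370 had one in hopTum against w1118.

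Together the 6 genes held 1.59%, 1.61% and 3.09% of all counts in w1118, 3.75%, 6.87% and 2.63% in hopTum, and 6.48%, 9.73% and 11.3% in tuSz1. Each tuSz1 library gave a larger part of its reads to these genes than any w1118 library, and hopTum overlapped both strains. Since nearly all of these reads were from Lsp1alpha and Lsp1gamma, the sums leave out whatever the other 4 genes would add.

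The balance between the 2 measured subunit genes did not overlap between strains, and it does not depend on how libraries are scaled. Lsp1alpha made up 44.4%, 55.7% and 41.7% of the summed Lsp1 counts in w1118, 5.50%, 25.6% and 3.29% in hopTum, and 36.6%, 35.9% and 36.2% in tuSz1. No values overlapped between any 2 genotypes. Levels of single genes did not overlap for 39%, 38.6% and 29.1% of tested genes in the 3 comparisons. No such share was computed for a balance of 2 genes. The widest 95% Wilson interval was ± 0.234 percentage points, for counting error only. The tuSz1 libraries were nearly identical in this balance (36.2% ± 0.331, SD, n = 3), although the level of either gene varied 2.60 to 2.64 times among them. In w1118 the mean was 47.3% ± 7.46 and in hopTum 11.5% ± 12.3.

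The differences in mean Lsp1alpha percent were -35.8 points for hopTum against w1118, -11.1 for tuSz1 against w1118 and 24.8 for tuSz1 against hopTum. An exact two-sided permutation test gave p = 0.1 for each (n = 3 against 3), the smallest p that this design can give, and 0.1 after adjustment over the 3 comparisons. Lsp1gamma exceeded Lsp1alpha 17.2, 2.91 and 29.4 times in hopTum by counts, against 1.74, 1.79 and 1.76 times in tuSz1 and 1.25, 0.794 and 1.40 times in w1118. hopTum replicate 2, the library with the most Lsp1alpha of its group, was also the nearest of the 3 to the other strains, and was still below them all. The Lsp1 genes are similar in sequence, and how reads that match several of them were assigned is not given in the sources used here, so the exact balance is uncertain.

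**Figure D3:**
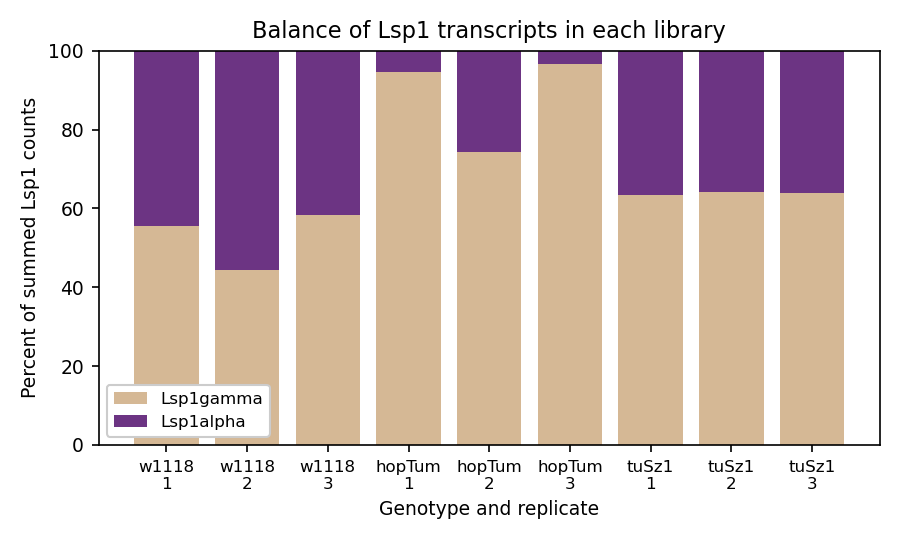
Percent of summed Lsp1 counts (vertical axis) that came from Lsp1gamma (tan) and Lsp1alpha (purple) in each library. Lsp1alpha makes up 3.29% to 25.6% in hopTum, 35.9% to 36.6% in tuSz1 and 41.7% to 55.7% in w1118.

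Expressed per kilobase of transcript, so that the genes can be compared, w1118 had 2783 ± 798 CPM per kb of Lsp1alpha and 3445 ± 1743 of Lsp1gamma (SD, n = 3). In hopTum the levels were 2918 ± 4134 and 15433 ± 7512 CPM per kb. In tuSz1 they were 17654 ± 8407 and 32694 ± 15650 CPM per kb. The per-length levels of the genes overlapped in w1118, while Lsp1gamma stood above Lsp1alpha in each hopTum and tuSz1 library.

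Because Lsp1alpha is X-linked, the RNAs of male dosage compensation and the genes around it are given beside its values. The summed level of roX1 and roX2, noncoding RNAs of the male X chromosome, ranged from 5.79 to 10.7 CPM among w1118 libraries, from 1.74 to 2.17 among hopTum and from 3.46 to 10.1 among tuSz1 libraries. roX1 alone fell in hopTum against w1118, by a log2 fold change of -2.57 ± 0.61 SE (edgeR adjusted p = 0.0137), a call lost in 2 of 18 alternatives. Both have several transcripts and low counts, and their part in the Lsp1alpha result was not tested. Within hopTum, roX levels were 1.74, 2.17 and 1.93 CPM in replicates 1 to 3, where Lsp1alpha differed 27.8 times. hop itself lies on the same chromosome, 1.12 Mb away.

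Of the 11 tested genes within 100 kb of Lsp1alpha, a window chosen after values were seen, mdu passed in all 3 comparisons and Pkcdelta in tuSz1 against w1118. mdu, 4206 bases away, was 2.77 higher on the log2 scale in hopTum and 1.56 higher in tuSz1 than w1118, and its log2 fold change was -1.21 in tuSz1 against hopTum (edgeR adjusted p = 0.000299, 0.0095 and 0.0435). The median log2 fold changes of the 11 were 0.13, -0.10 and 0.13. Of the 8 tested genes within 100 kb of Lsp1gamma, mthl8 was lower in both mutants than in w1118 and higher in tuSz1 than in hopTum, and CG43149 was lower in tuSz1 than in w1118. The medians of the 8 were -0.55, -0.50 and 0.05, where those of all tested genes were -0.05, 0.08 and 0.03. Calls in either direction made up 18.1%, 16.3% and 9.66% of all tested genes in the 3 comparisons.

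The genes whose levels followed the members most closely were taken by Pearson correlation of log2(CPM + 1) over the 9 libraries, which share their scaling. For Lsp1gamma these were Hf (r = 0.992), CG12279 (r = 0.987) and p38c, a p38 MAP kinase (r = 0.982). Mean Hf levels (± SD, n = 3) were 44.8 ± 13.9 CPM for w1118, 136 ± 31.2 for hopTum and 220 ± 48.4 for tuSz1. An order of strains like that of Lsp1gamma follows from how Hf was picked. For Lsp1alpha they were CG33012 (r = 0.986), CG5883 (r = 0.964) and Cyp6a21, a cytochrome P450 (r = 0.962). CG33012 was at 26.8, 85.1 and 12.8 CPM in hopTum replicates 1 to 3, and at 33.3 to 63.3 CPM in w1118 and 99.5 to 246.0 CPM in tuSz1. Its likeness to Lsp1alpha in single libraries also follows from the way it was picked. Lsp1alpha and Lsp1gamma correlated with each other less closely, at r = 0.565.

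Other genes of the fat body were set beside Lsp1gamma. Of 16 listed genes, 10 were tested and 3 of those have a single transcript. In hopTum 1 of the 10 was called, higher than in w1118, where 11.5% of all tested genes were called higher, and the median log2 fold change was 0.20 beside -0.05 over all tested genes. In tuSz1 2 of the 10 were called against w1118, both higher, beside 9.98% of all genes, with a median of 1.04 beside 0.08. Against hopTum 2 were called, both higher, beside 5.52% of all genes, with 0.84 beside 0.03. Scaling to total counts turned the hopTum median to -0.26 and cut that of tuSz1 against w1118 to 0.20, where the medians of all genes were -0.41 and -0.70.

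The gene called in both mutants was Apoltp, which encodes a lipid transfer particle protein of the blood. From 75.04 ± 24.5 CPM (SD, n = 3) in w1118 it rose to 302 ± 73.6 with hopTum, by 2.01 ± 0.47 SE on the log2 scale (edgeR adjusted p = 0.0128), and to 547 ± 384 in tuSz1, by 2.87 ± 0.48 SE (edgeR adjusted p = 0.00211). Its hopTum call was lost in 1 of the fits that left out a library. apolpp, which encodes the main blood lipoprotein, averaged 73.4 ± 11.5 CPM for tuSz1 and 38.1 ± 7.14 for w1118 (0.95 ± 0.30 SE on the log2 scale, edgeR adjusted p = 0.0489), a call that was lost in 16 of 18 alternatives. Desat1, a fatty acid desaturase, was 2.37 ± 0.52 SE higher on the log2 scale in tuSz1 than hopTum (edgeR adjusted p = 0.0152). The single-transcript gene ppl, a fat body enzyme of glycine breakdown, averaged 308 ± 90.0 CPM for w1118, 223 ± 72.6 for hopTum and 396 ± 72.9 for tuSz1 and passed in no comparison (adjusted p = 0.129 to 0.496, edgeR).

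As a check of the fat body label, the summed level of 8 fat body markers ranged over 508 to 786 CPM for w1118, 775 to 846 for hopTum and 887 to 2053 for tuSz1. Of these, Tsf1 and Adh were near 0 in all libraries, and each has several transcripts. Apoltp was the marker called higher in hopTum. Lsd-1, a lipid droplet protein, averaged 7.78 ± 2.91 CPM for w1118, 3.12 ± 0.0471 for hopTum and 3.61 ± 0.968 for tuSz1 (edgeR adjusted p = 0.0544 and 0.102 against w1118). It was called lower in both mutants under total count scaling (edgeR adjusted p = 0.0327 and 0.0132). With the 50 most counted genes left out of the scaling it was called lower in hopTum but not in tuSz1 (edgeR adjusted p = 0.0369 and 0.0632). The summed level of 7 midgut markers ranged over 5832 to 10139 CPM for w1118, 4174 to 6955 for hopTum and 16014 to 22372 for tuSz1. Most of that sum was Jon65Aiii, a gut serine protease (5932, 4225 and 17098 CPM on average). Of 5 tested midgut markers, 2 were called higher and 1 lower in tuSz1 than w1118, beside 9.98% and 6.33% of all tested genes. The higher ones were Jon65Aiii and gammaTry (log2 fold changes 1.53 and 1.54, edgeR adjusted p = 0.0151 and 0.0176). Jon99Ci, another gut serine protease, was called lower (log2 fold change -1.73, edgeR adjusted p = 0.0313, a call lost in 7 of 18 alternatives). Against hopTum 3 were called higher in tuSz1, beside 5.52% of all genes. Amy-d, an amylase, was at 2.26 CPM in tuSz1 replicate 3 and at 105 to 434 CPM in the other 8 libraries. The summed level of 6 blood cell markers ranged over 36.0 to 87.5, 61.5 to 93.04 and 27.3 to 70.3 CPM, with eater the largest part in all libraries but tuSz1 replicate 3. Hml and He were listed at 0. Each has 2 listed transcripts, so this is not read as absence of expression. Of the 3 tested, 2 were called higher in hopTum and 1 in tuSz1 against w1118, beside 11.5% and 9.98% of all tested genes. NimC1 was called higher in hopTum (log2 fold change 1.67, edgeR adjusted p = 0.00637) and in tuSz1 (1.23, edgeR adjusted p = 0.0282, a call lost in 10 of 18 alternatives). The marker eater was lower in both mutants, without a call (log2 fold changes -0.26 and -0.90, edgeR adjusted p = 0.762 and 0.278). Sr-CI, listed at 0 in w1118, was called higher in hopTum at 9.42 ± 2.55 CPM (edgeR adjusted p = 0.000122). The part of these tissues in the Lsp1 results was not tested.

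Among relatives of the members by sequence family, the prophenoloxidases are enzymes of melanin formation in the same protein family as hexamerins. Of their 3 genes 2 were called higher in each mutant against w1118, PPO1 and PPO3. Among all tested genes 11.5% were called higher in hopTum and 9.98% in tuSz1. Mean PPO1 levels (± SD, n = 3) were 29.7 ± 3.70 CPM for w1118, 122 ± 66.4 for hopTum and 81.6 ± 24.1 for tuSz1. Its call in tuSz1 was lost in 4 of 18 alternatives. PPO3 averaged 5.27 ± 2.41 CPM for w1118, 11507 ± 1563 for hopTum and 1552 ± 148 for tuSz1 (edgeR adjusted p = 3.13e-07 and 1.41e-06), and its log2 fold change between the mutants, tuSz1 against hopTum, was -2.89 (edgeR adjusted p = 0.000972). The Fbp2 relatives Adh, Adhr and Pdh all failed the filter on low counts, with 2 of them at 0 in every library. They have 5, 3 and 4 listed transcripts, so these low levels are not read as absence of expression.

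All calls among genes of hormone response and fat body regulation were to a lower level in the mutants. Of 17 listed genes, 13 were tested, all with several transcripts, so their levels are those of the transcript parts that could be counted. In hopTum against w1118 5 were called, all lower, where 6.65% of all tested genes were called lower, with a median log2 fold change of -0.67 beside -0.05 over all tested genes. In tuSz1 against w1118 6 were called, all lower, beside 6.33% of all genes, with -1.05 beside 0.08. In tuSz1 against hopTum 3 were called, all lower, beside 4.14% of all genes, with -0.64 beside 0.03. Under the other 3 scalings all calls were lower too, 3 to 7 in each comparison.

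Of these regulators br, which encodes the Broad transcription factors that act early in the ecdysone response, stepped down from strain to strain. Its levels were 618.5, 627.5 and 898.7 CPM for w1118, 262.5, 310.4 and 406.8 CPM for hopTum, and 144.4, 79.8 and 95.7 CPM for tuSz1, with no overlap between groups. The log2 fold changes were -1.13 ± 0.31 SE in hopTum against w1118, -2.75 ± 0.33 in tuSz1 against w1118 and -1.61 ± 0.32 in tuSz1 against hopTum (edgeR adjusted p = 0.0284, 0.000225 and 0.00867). The first of these calls was lost in 5 of 18 alternatives and the other two in none of the 18. Eip75B, a nuclear receptor induced by ecdysone, averaged 310.4 ± 38.4 CPM (SD, n = 3) for w1118 and fell to 130 ± 51.6 for hopTum and 55.8 ± 19.1 for tuSz1 (edgeR adjusted p = 0.0244 and 0.000678), and its hopTum call was lost in 3 of 18 alternatives.

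Eip78C, another nuclear receptor of the ecdysone response, averaged 90.01 ± 25.9 CPM for w1118 and fell to 14.2 ± 14.9 for hopTum and 0.984 ± 0.0562 for tuSz1 (edgeR adjusted p = 0.0175 and 0.000419), and its hopTum call was lost in 2 of 18 alternatives. EcR, the ecdysone receptor, averaged 20.9 ± 2.35 CPM for w1118, with 8.79 ± 2.01 for hopTum and 8.10 ± 3.58 for tuSz1 (edgeR adjusted p = 0.0433 and 0.0326), and its calls were lost in 9 of 18 alternatives in hopTum and 6 of 18 in tuSz1. Hr3, a receptor of the later ecdysone response, was at 2.66 ± 0.716 CPM in w1118 and at or near 0 in both mutants. Aef1, a zinc finger factor that binds fat body enhancers, passed in no comparison (adjusted p = 0.794 to 0.892, edgeR), nor did the juvenile hormone genes Met, gce and Kr-h1.

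**Figure D4:**
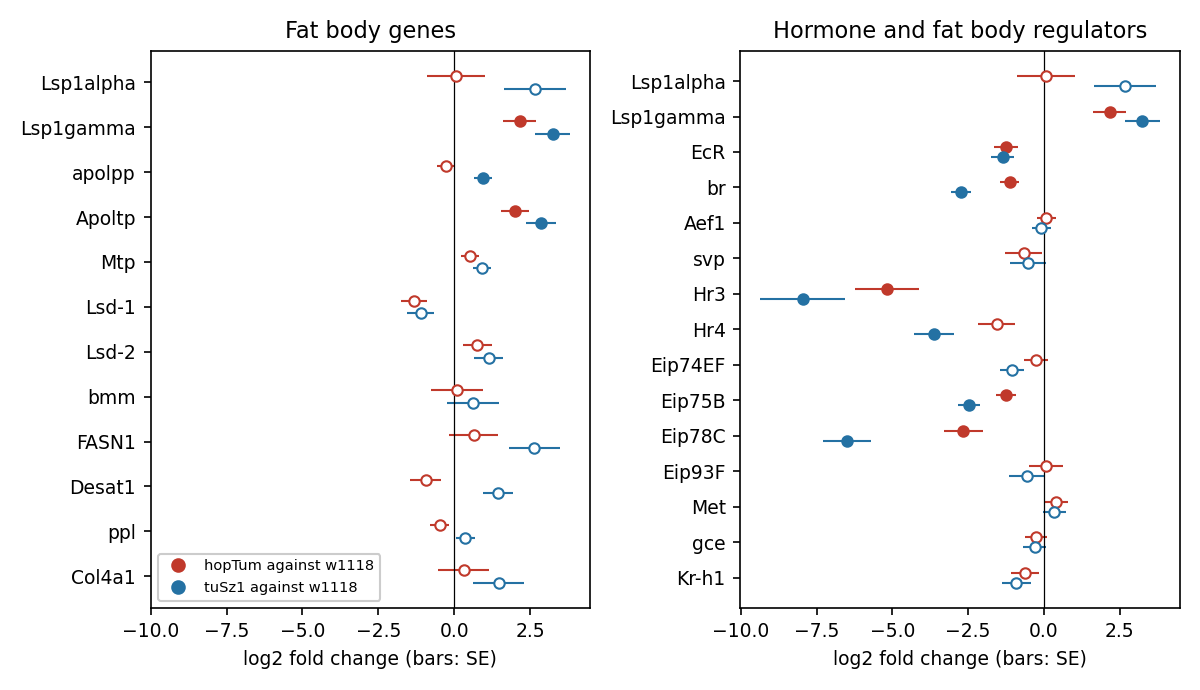
Log2 fold change against w1118 (horizontal axis; bars are SE) of the 2 measured Lsp1 genes with the tested fat body genes (left) and regulators (right), in hopTum (red) and tuSz1 (blue); filled points passed an adjusted p of 0.05. Apoltp and Lsp1gamma are to the right in both mutants, and the called regulators are all to the left. All values shown are those of the main test.

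Late puff genes are known for expression at the end of larval life. Of 11 Eig71E genes 6 were tested, and 5 of those were called lower in each mutant against w1118, beside 6.65% and 6.33% of all tested genes. Among the 5, Eig71Ec, Eig71Ed and Eig71Ef were at 54.5, 30.6 and 28.2 CPM in w1118 replicate 2. In the other w1118 libraries they were at 2.39 to 8.53 CPM. Eig71Ea and Eig71Eg averaged 133 and 18.0 CPM in w1118. The most counted of the 6, Eig71Ee, averaged 4690 CPM in w1118 and made up most of the summed level there. It was not called (log2 fold changes of -0.42 and -0.41, edgeR adjusted p = 0.878 and 0.899). The summed late puff level overlapped between w1118 (2559 to 7720 CPM) and hopTum (2351 to 4160 CPM), and was 5915, 4660 and 3.81 CPM for tuSz1. Glue genes are made in the salivary gland in the third larval instar. Their summed level was 47711 to 61617 CPM in w1118 and 12427 to 16535 in hopTum, and 56049, 57462 and 33.1 CPM in tuSz1 replicates 1 to 3. tuSz1 replicate 3, nearly without glue transcripts, had the most Lsp1alpha and Lsp1gamma of all libraries. Without it the Lsp1gamma log2 fold change in tuSz1 against w1118 was 2.82 (edgeR adjusted p = 0.00416), and that of Lsp1alpha was 2.24 (edgeR adjusted p = 0.314). The part of developmental stage in the Lsp1 differences was not tested.

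Genes of nutrient and insulin response were mixed. Of 10 listed, 8 were tested, and 1 was called, lower, in each mutant against w1118, beside 6.65% and 6.33% of all tested genes. The medians were -0.07 in hopTum and 0.12 in tuSz1 beside -0.05 and 0.08 over all genes. Akh, the adipokinetic hormone that mobilises fat body stores, fell in hopTum from 7.93 ± 4.51 to 2.15 ± 0.701 CPM (-1.87 ± 0.49 SE on the log2 scale, edgeR adjusted p = 0.0228). Ilp6, an insulin-like peptide of the fat body, fell in tuSz1 from 254 ± 101 to 109 ± 10.7 CPM (-1.23 ± 0.30 SE, edgeR adjusted p = 0.0165). Both calls were lost in 3 of 18 alternatives. tobi, an alpha-glucosidase that responds to diet and Akh, was higher in tuSz1 than in hopTum (219 ± 42.5 against 12.5 ± 9.36 CPM, 4.13 ± 0.80 SE on the log2 scale, edgeR adjusted p = 0.0142), a call also lost in 3 of 18.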

How the data were processed

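The authors deposited raw read counts, 1 table per library, with 34111 RefSeq transcript entries each. The submitters' processing notes name HISAT2 2.1.0, featureCounts 1.6.3, FastQC 0.11.8 and the build dm6; strand setting and handling of shared reads are not given in the sources used here. Gene symbols came from RefSeq annotation (assembly Release 6 plus ISO1 MT), by transcript accession: 33766 with their version, 146 without, 199 not at all (0.421% of counts). Exon structures came from an Ensembl annotation in dm6 coordinates, which gave all 6 genes the same start and end as RefSeq. Counts were summed per gene, with groups taken from the titles.

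The main test was edgeR 4.0.16 in R 4.3.3: TMM, default low-count filter by group, robust quasi-likelihood fit of all 9 libraries, Benjamini-Hochberg adjustment over 9106 genes, threshold 0.05. SE is the absolute log2 fold change over the square root of F. CPM uses TMM-adjusted library sizes. Replicate pairs differed by 49.8 to 245.6 chi-square units per degree of freedom, so none was a copy. The test was tried on simulated counts. The members and lists were chosen with earlier results of these data known. The named genes were the members, list genes called in at least 1 comparison, and, per tested member, the 3 genes of at least 5 CPM with the highest r; the 4 untested members were left out of that step. Genes named that passed no test (Aef1, Met, gce, Kr-h1, ppl, Lsd-1, Amy-d, Eig71Ee, eater, roX2, and the markers at or near 0) and all neighbours were chosen after their values were seen. The gene hop was in none of the lists and was named outside these rules. Alternatives were other scalings, filters, DESeq2 1.42.0, the 6 libraries compared, a replicate block, a minimum log2 fold change of 1 and leaving out each library. Tables and figures used Python 3.11.15, scipy 1.17.1, pandas 2.3.3 and matplotlib 3.10.9. No nucleotide or protein sequences were used here.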

Additional observations from a re-analysis of the deposited data

How the results depend on the processing

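Lsp1gamma kept its direction in every alternative run, with log2 fold changes of 1.72 to 2.27 (hopTum against w1118), 2.37 to 3.24 (tuSz1 against w1118) and 0.65 to 1.08 (tuSz1 against hopTum) over the 9 alternatives that kept all replicates. With 1 library left out these ran from 1.74 to 2.65, 2.82 to 3.73 and 0.65 to 1.51. Lsp1alpha in hopTum against w1118 changed sign: -0.50 under total count scaling, -0.017 with the 50 most counted genes left out, -0.0018 with no filter on low counts, -0.042 with a mean count of at least 50 and -0.66 with the replicate block, and from -2.37 to 0.60 with 1 library left out; the cause was not tested. In tuSz1 against w1118 it passed with the 6 libraries compared only (2.47, 2 members called) and ran from 2.24 to 2.94 with 1 library left out; in tuSz1 against hopTum from 1.98 to 5.04. Members called ran from 0 to 1, 1 to 2 and 0 to 1 with 1 library left out. Calls over all genes ran from 823 to 1999, 786 to 1701 and 507 to 891 likewise; the replicate block gave 986 in tuSz1 against w1118 and 504 in tuSz1 against hopTum, where total count scaling gave 1408 and the DESeq2 Wald test 1355. The share of calls that were higher went from 63.3% to 37.5%, 61.2% to 19.8% and 57.2% to 27.6% under total count scaling in the 3 comparisons. Same-numbered libraries did not deviate together (correlations of -0.502 to 0.253), and the block changed no call of a member. With the 50 most counted genes left out, mean CPM of Lsp1alpha moved by more than 1 SD in w1118 and tuSz1, to 13030 and 71999. That of Lsp1gamma moved so in w1118, hopTum and tuSz1, to 15381, 62934 and 127023. That setting makes the library totals smaller, so CPM rose in every genotype, also for Lsp1alpha in hopTum (7659 to 12876). Such a rise is a change of unit. Under total count scaling Lsp1alpha in w1118 moved by more than 1 SD, to 9654. The Lsp1alpha percent of Lsp1 counts kept its order per kilobase; with 1 library left out the differences ran from -42.9 to -31.6, -13.9 to -6.84 and 20.7 to 31.8 points. A minimum log2 fold change of 1 moved no count by over 1.5 times. The alternatives for list genes were run after their values were seen. Lsp1beta, Lsp2, Fbp1 and Fbp2 had too few counts for any of these alternatives to be read.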
